A study of Mus musculus with 12 samples.

Results

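The Mef2 family consists of 4 genes in the mouse, Mef2a, Mef2b, Mef2c and Mef2d, and all 4 are described here out of 21938 protein-coding genes on the assembled chromosomes. They were listed by name and placed by the GENCODE M21 annotation of the GRCm38 genome. A peak was assigned to a gene when it overlapped the gene body or lay within 3 kb of any of its annotated start sites. This gave 17 of the 19773 peaks of the Mof+/+ list and 0 of the 731 peaks of the Mof+/- list.

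The study mapped the chromatin binding of MOF, the acetyltransferase that places the H4K16ac mark, by ChIP-seq in visceral white adipose tissue of C57BL/6 mice that were 8 weeks old and kept on standard diet. Its 12 libraries fall into 6 groups of 2, namely MOF immunoprecipitation, histone H3 immunoprecipitation and input, each from Mof+/+ mice and from heterozygous Mof+/- mice. The heterozygotes carried the Mof deletion on one allele in every cell rather than in fat alone, and the nuclei came from whole tissue, so that a peak cannot be assigned to adipocytes or to another cell type. The lists used here hold 1 set of peaks per genotype, without replicate columns, so no replicate spread can be taken from them, and each error given below is a 95% Poisson interval that covers counting error only.

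MEF2 proteins are MADS-box transcription factors that bind an A/T-rich DNA element as dimers. Class IIa histone deacetylases hold them in a repressed state at their targets, and calcium-dependent kinases, calcineurin and the p38 and ERK5 kinases release or activate them. Mef2a and Mef2d are expressed in many tissues, Mef2c is best known from heart, skeletal muscle, bone, neurons and B cells, and Mef2b from germinal centre B cells. MEF2 factors bind the promoter of Slc2a4, which encodes the insulin-responsive glucose transporter GLUT4. The study set Mef2c beside Pparg and Ppargc1a as activators of Slc2a4 and asked whether MOF occupies these genes, which is the question behind the present description. Its ChIP-qPCR in white adipose tissue found no MOF enrichment at promoters of Slc2a4, Ppargc1a and Mef2c. The same assay found MOF at the promoter of the main Pparg isoform. That assay reads chosen promoter fragments relative to H3, so it is not the same measure as the peak calls given here.

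The genes differ in length and in the number of promoters. Mef2a (ENSMUSG00000030557.17) runs over 142 kb of the reverse strand of chromosome 7, from 67231163 to 67372858, with 12 transcripts. Mef2b (ENSMUSG00000079033.10) covers 27.8 kb of the forward strand of chromosome 8, from 70139711 to 70167488, with 5 transcripts. Mef2c (ENSMUSG00000005583.16) is the longest, at 163 kb of the forward strand of chromosome 13 from 83504034 to 83667080, with 31 transcripts. Mef2d (ENSMUSG00000001419.17) covers 29.7 kb of the forward strand of chromosome 3, from 88142372 to 88172086, with 7 transcripts. Start sites of one gene less than 500 bp apart were joined into one alternative promoter, numbered in the direction of transcription. Mef2a then has 5 alternative promoters, Mef2b 2, Mef2c 10 and Mef2d 3, against a median of 2 per protein-coding gene.

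The sequences before the start sites show how unlike these promoters are. The 200 bases upstream of the first start site are printed for the first promoters of Mef2d and Mef2a, which lie inside a MOF peak, and for Mef2c promoter 3, which the strongest Mef2c peak overlaps. Mef2c promoter 1 and Mef2b promoter 2 are shown as promoters without a peak within 1 kb. Each CpG is in capitals, and the sequences run 5′ to 3′ on the strand of the gene in the GRCm38.p6 genome.
Mef2d promoter 1, with a peak, chr3:88142172-88142371, forward strand: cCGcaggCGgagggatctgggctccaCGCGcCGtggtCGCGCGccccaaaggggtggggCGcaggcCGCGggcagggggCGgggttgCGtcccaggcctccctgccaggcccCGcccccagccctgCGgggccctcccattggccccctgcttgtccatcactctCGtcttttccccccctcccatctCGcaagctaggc
Mef2a promoter 1, with a peak, chr7:67372859-67373058, reverse strand: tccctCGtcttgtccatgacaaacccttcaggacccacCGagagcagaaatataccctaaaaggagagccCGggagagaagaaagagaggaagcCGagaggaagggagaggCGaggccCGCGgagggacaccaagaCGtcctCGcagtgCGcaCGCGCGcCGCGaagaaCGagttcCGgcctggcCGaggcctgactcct
Mef2c promoter 3, with a peak, chr13:83524091-83524290, forward strand: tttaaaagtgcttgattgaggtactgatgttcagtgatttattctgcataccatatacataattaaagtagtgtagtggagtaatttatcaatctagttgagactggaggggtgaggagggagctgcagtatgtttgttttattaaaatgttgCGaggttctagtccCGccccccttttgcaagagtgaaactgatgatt
Mef2b promoter 2, without a peak, chr8:70152578-70152777, forward strand: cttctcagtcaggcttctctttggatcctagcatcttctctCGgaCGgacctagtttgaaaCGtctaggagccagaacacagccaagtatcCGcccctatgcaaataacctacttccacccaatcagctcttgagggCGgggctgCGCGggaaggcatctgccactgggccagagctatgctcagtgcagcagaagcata
Mef2c promoter 1, without a peak, chr13:83503834-83504033, forward strand: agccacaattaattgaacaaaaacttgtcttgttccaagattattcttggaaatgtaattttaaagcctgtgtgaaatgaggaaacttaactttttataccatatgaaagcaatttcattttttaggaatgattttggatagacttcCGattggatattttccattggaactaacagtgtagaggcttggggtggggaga
These stretches hold 17 CpGs in Mef2d, 18 in Mef2a, 2 in Mef2c promoter 3, 7 in Mef2b promoter 2 and 1 in Mef2c promoter 1. Mef2a and Mef2d thus show the dense CpG of an island promoter, whereas the printed bases of Mef2c promoter 3 are sparse in CpG. Those bases end before its peak begins at 83524436, and the 1001 bp around its first start hold 46 CpGs. RefSeq holds 6 promoter entries for the 4 genes on the same build, and all 6 equalled the sequence read from the genome.

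All 4 genes had a Mof+/+ peak under the rule, as did 44.5% of all protein-coding genes and 52.9% of those at least 25 kb long. Mef2d had 7 peaks, Mef2c 6, Mef2b 3 and Mef2a 1. The median gene with a peak had 1, and 2.04% of protein-coding genes had 6 or more, as Mef2c and Mef2d did. That share covers genes of any length and is not matched to the 163 kb of Mef2c, and the limit of 6 is Mef2c's own count. None of the 4 had a Mof+/- peak, a state they share with most genes, since 1.89% of protein-coding genes had one. The peaks held 9980 bp at Mef2d, 4964 bp at Mef2c, 1627 bp at Mef2a and 1564 bp at Mef2b.

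**Figure D1:**
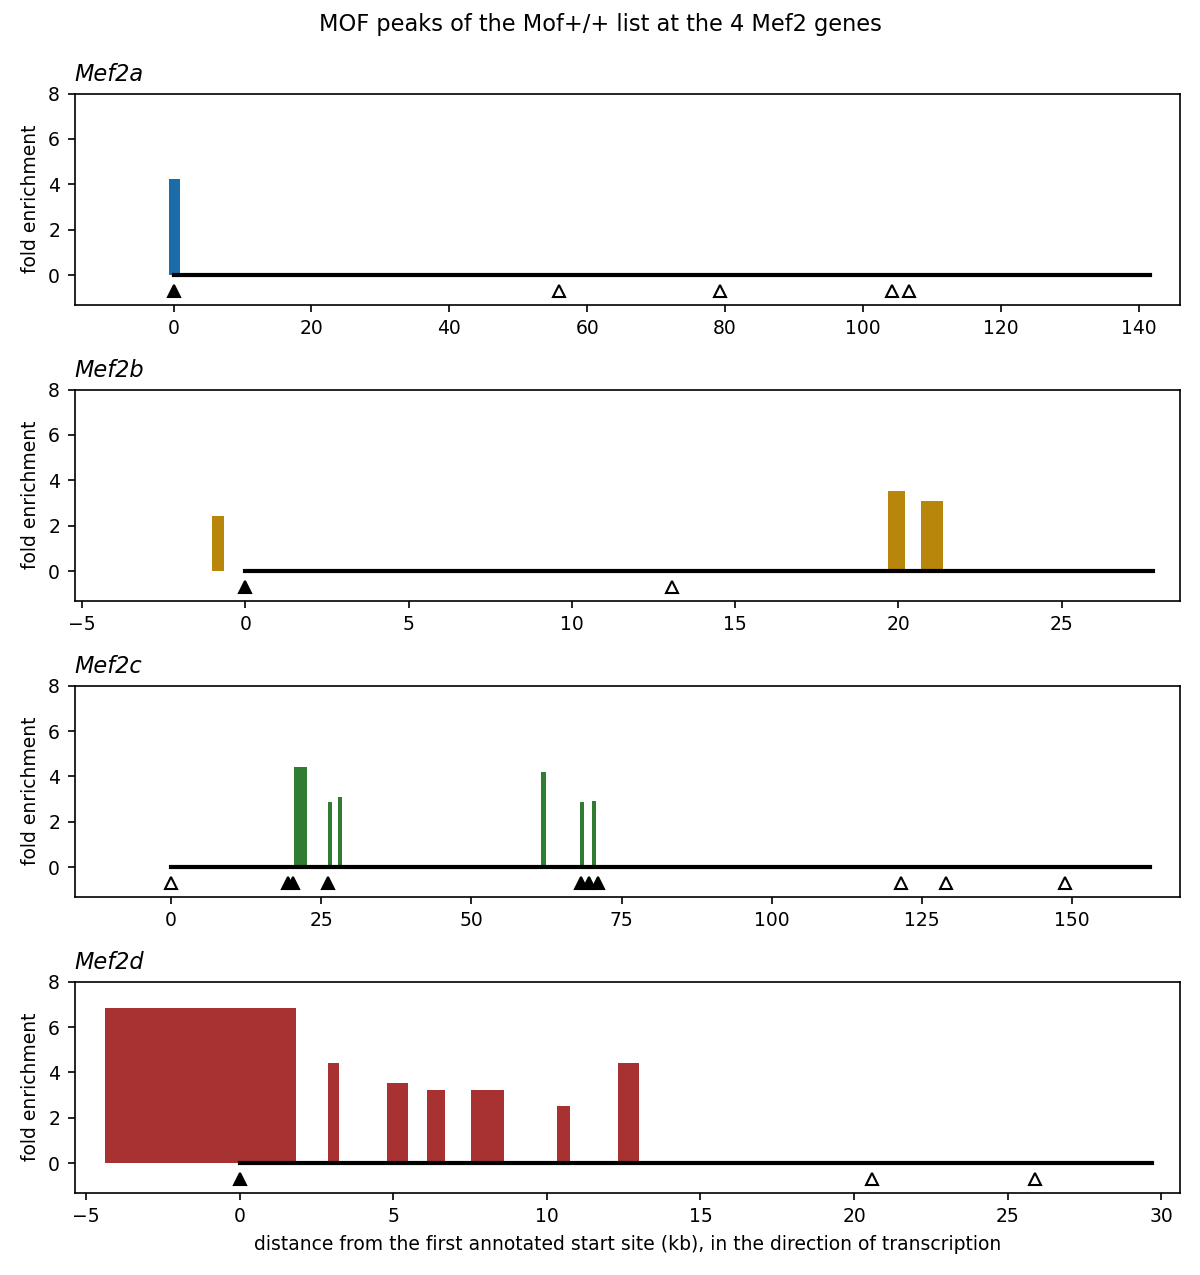
Position and strength of the Mof+/+ peaks along each Mef2 gene. The horizontal axis is the distance from the first annotated start site in kb along the direction of transcription and differs in scale between panels, the black line is the gene body, bars are peaks drawn to their width (the narrowest widened to stay visible) with their fold enrichment as height, and triangles are alternative promoters, filled where a peak lay within 1 kb; the 7 Mef2d peaks crowd around and after the first start, whereas Mef2a has 1 bar and the first Mef2c promoter has none.

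The strongest peak and the most peaks of the family were at Mef2d, which encodes a broadly expressed MEF2 factor. The order by count turned in other settings: within 1 kb of a start site Mef2d had 1 peak and Mef2c 4, and with peaks within 1000 bp merged Mef2d had 5 and Mef2c 6. Its first peak ran from 88137998 to 88144216, a width of 6219 bp that covered all start sites of promoter 1. Only 0.359% of Mof+/+ peaks were as wide or wider. The fold enrichment over background at the summit was 6.86 (95% interval 4.7 to 9.69), from 30 fragments over a background of 3.52, and 1.24% of Mof+/+ peaks reached that value. The summit lay in intergenic sequence 1057 bp before the first start site, and the 200 bases around it had 44.5% GC. Among the other 16 Mof+/+ peaks of the family, 2 had an interval wholly below that of this peak and 14 had one that overlapped it.

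The other 6 Mef2d peaks followed inside the gene, all with their summits in introns. They began at 88145256, 88147177, 88148462, 88149896, 88152713 and 88154696. Their fold enrichments, in the same order, were 4.42, 3.54, 3.23, 3.24, 2.51 and 4.42, from 12 to 19 fragments. The weakest of them, peak 6, had a 95% interval of 1.39 to 4.24 and the strongest, peaks 2 and 7, of 2.75 to 6.78, so the intervals of these 6 peaks overlapped. From the first to the last peak the run spanned 17361 bp. Promoters 2 and 3 of Mef2d, each the start of a single transcript without a coding sequence, had no peak within 1 kb, the nearest lying 7602 and 5192 bp away.

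The sequence under the Mef2d peaks became poorer in CpG inside the gene. The 6 intronic peaks had ratios of observed to expected CpG between 0 and 0.285, against 0.503 in the broad first peak and a median of 0.402 over all Mof+/+ peaks. In peak 6, 59.5% of the bases, and in peak 7, 39.7%, were marked as repeats in the genome file, against a median of 9.95% and an upper quartile of 19.3% over the list. The 200 bases centred on the summit are given for peak 1, the strongest of the family, and for the repeat-rich peak 6, with each CpG in capitals.
Mef2d peak 1 summit, chr3:88141215-88141414, forward strand: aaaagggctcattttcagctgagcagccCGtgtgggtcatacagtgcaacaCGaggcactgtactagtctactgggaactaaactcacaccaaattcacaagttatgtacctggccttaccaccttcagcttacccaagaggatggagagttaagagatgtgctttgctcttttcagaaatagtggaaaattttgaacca
Mef2d peak 6 summit, chr3:88152880-88153079, forward strand: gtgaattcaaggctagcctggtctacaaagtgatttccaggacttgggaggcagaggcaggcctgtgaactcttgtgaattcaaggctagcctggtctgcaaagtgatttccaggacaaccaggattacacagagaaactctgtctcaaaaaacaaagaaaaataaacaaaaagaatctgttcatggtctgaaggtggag
The first holds 2 CpGs and the second none.

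Mef2a, the ubiquitous family member, presented the opposite layout, with a single peak at the first promoter and none elsewhere in its 142 kb. The peak ran from 67371846 to 67373472 over 1627 bp and covered both start sites of promoter 1, from which 7 of the 12 transcripts begin. Its fold enrichment was 4.25 (95% interval 2.71 to 6.4) from 21 fragments over a background of 4.17, above the value of 78.6% of Mof+/+ peaks. The summit lay 165 bp before the first start site. The other 4 Mef2a promoters were between 35960 and 63447 bp from the nearest Mof+/+ peak. A start of Gm44668, an unclassified transcript, lay 866 bp from the same peak.

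Mef2c, the member that the study placed in the GLUT4 network, had 4 of its 6 peaks within 1 kb of internal promoters. The upstream-most promoter, which opens the gene at 83504034 and starts 6 transcripts, had no peak, and the nearest one began 20196 bp further on. The strongest Mef2c peak ran from 83524436 to 83526636, 2201 bp wide, with a fold enrichment of 4.42 (95% interval 2.75 to 6.78) from 19 fragments. It overlapped promoter 3, where 10 start sites cluster, and came within 963 bp of promoter 2. Its summit lay 782 bp past the last of those start sites, in the exon of a noncoding transcript.

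Weaker peaks marked further Mef2c promoters. Peak 2 lay 136 bp from promoter 4 and peak 5 covered promoter 5, each with a fold enrichment of 2.88 (95% interval 1.59 to 4.86) from 12 fragments. Peak 6, with 2.9 (1.67 to 4.73) from 14 fragments, lay 464 bp from promoter 6 and 363 bp from promoter 7. These 3 peaks ranked low in the list, at the 18th to 24.8th percentile of fold enrichment. In all, 6 of the 10 Mef2c promoters had a peak within 1 kb, served by 4 peaks. Such a count of 6 or more was found in 0.0775% of protein-coding genes, and in 1.18% of the 1442 genes that have at least 6 alternative promoters. With a q-value of at most 0.01 in place of the 0.1 used by the authors, Mef2c kept 3 of its 6 peaks and 2 of its 6 promoters with a peak, so that the count of 6 was lost.

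The remaining Mef2c peaks were intronic. Peak 3, from 83531885 to 83532432, had a fold enrichment of 3.1 from 13 fragments and lay 1747 bp from the nearest start. Peak 4, from 83565600 to 83566416, reached 4.2 (95% interval 2.58 to 6.51) from 18 fragments and lay 5932 bp from the nearest start. The last 3 promoters of Mef2c were between 50821 and 74458 bp from a peak. Summit sequences are shown for peaks 1 and 4, the strongest promoter-proximal and intronic peaks of the gene, again with each CpG in capitals.
Mef2c peak 1 summit, chr13:83525602-83525801, forward strand: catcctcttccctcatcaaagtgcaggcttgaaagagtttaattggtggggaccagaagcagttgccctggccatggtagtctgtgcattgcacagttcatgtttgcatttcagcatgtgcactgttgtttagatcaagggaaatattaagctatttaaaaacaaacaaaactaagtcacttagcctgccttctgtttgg
Mef2c peak 4 summit, chr13:83566233-83566432, forward strand: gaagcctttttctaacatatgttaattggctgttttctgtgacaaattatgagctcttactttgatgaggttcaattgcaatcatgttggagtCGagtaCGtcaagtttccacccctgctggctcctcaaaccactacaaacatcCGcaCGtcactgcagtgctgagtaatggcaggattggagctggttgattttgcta
The summit of peak 1 holds no CpG and that of peak 4 holds 4, although peak 1 as a whole had 50.

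Mef2b, the member known from germinal centre B cells, had 3 peaks and none on its own start sites. Peak 1, from 70138703 to 70139050, ended 661 bp before the Mef2b start at 70139711. The same peak lay 46 bp from a start of Rfxank, which encodes a subunit of the RFX complex of MHC class II genes, and 449 bp from a start of Borcs8, which encodes a subunit of the lysosome-positioning BORC complex. It was the weakest peak of the family, with a fold enrichment of 2.44 (95% interval 1.43 to 3.92) from 15 fragments. The peak cannot be attributed to one of the 3 genes. Promoter 2, from which 4 of the 5 Mef2b transcripts begin, had no peak within 1 kb.

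Peaks 2 and 3 of Mef2b lay in an intron, from 70159393 to 70159910 and from 70160390 to 70161087, 6612 and 7609 bp from the nearest start. Their fold enrichments were 3.54 (95% interval 2.08 to 5.69) and 3.09 (1.82 to 4.97), each from 15 fragments. In peak 3, 47.4% of the bases were marked as repeats.

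**Figure D2:**
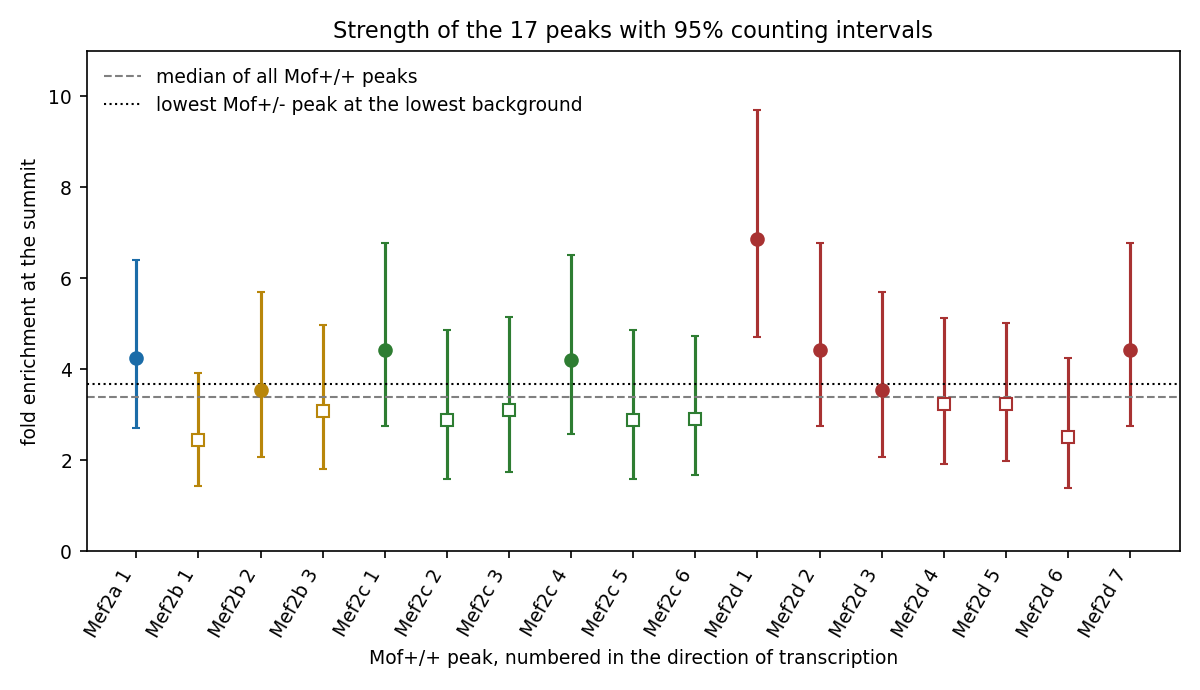
Fold enrichment at the summit of the 17 Mof+/+ peaks of the Mef2 genes, with bars for the 95% Poisson interval of the fragment count. Filled circles passed the Mof+/- cutoff at equal enrichment with fragments rounded to the nearest whole number, Mef2b 2 and Mef2d 3 only through that rounding, and open squares did not; the dashed line is the median of all Mof+/+ peaks (3.4) and the dotted line the lowest Mof+/- value at the lowest background (3.68), and Mef2d peak 1 stands highest at 6.86.

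Across the family the fold enrichments ran from 2.44 to 6.86 with a median of 3.24, against a median of 3.4 (quartiles 2.9 and 4.17) over the whole Mof+/+ list, and 8 peaks lay above the list median and 9 under it. Of the 17 peaks, 7 came within 1 kb of a start of their own gene and 10 did not. The summits of 12 were in an intron of the same gene. In the order of the strongest peak, Mef2d at 6.86 was followed by Mef2c at 4.42, Mef2a at 4.25 and Mef2b at 3.54. The intervals of neighbours in this order overlapped. When only peaks within 1 kb of a start counted, Mef2b fell to 2.44 and the order stayed the same.

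Counted by promoter, 9 of the 20 alternative promoters of the family had a Mof+/+ peak within 1 kb, against 22.9% of 52561 alternative promoters of protein-coding genes. With the q-value limit lowered to 0.01 it was 4 of 20 against 20.6%, a share of 20% that lay close to the background. None had a Mof+/- peak, against 0.729% of all promoters. Base composition separated the promoters further. A promoter was called CpG-rich when the 1001 bp around its first start site had a ratio of observed to expected CpG of at least 0.6 and a GC content of at least 50%. Mef2a promoter 1, Mef2b promoter 1, Mef2c promoter 3 and Mef2d promoter 1 met this, and all 4 had a peak, as did 66.7% of CpG-rich promoters overall. Of the other 16, 5 had a peak, all of them promoters of Mef2c, against 10.1% of such promoters overall. With the q-value limit of 0.01, 3 of the 4 CpG-rich promoters kept a peak, against 61.6% of all CpG-rich promoters, and 1 of the other 16, or 6.25%, against 8.56% of all such promoters.

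The CpG ratio was 0.888 at Mef2a promoter 1 and 0.84 at Mef2d promoter 1, with GC contents of 73% and 68.6%. The ratio was 0.706 at Mef2b promoter 1 and 0.668 at Mef2c promoter 3. The Mef2c promoters 4, 5 and 6 carried peaks at ratios between 0.277 and 0.309, a range that takes in the 0.296 of Mef2c promoter 1, which had none. The family's median ratio was 0.668 for promoters with a peak and 0.277 for those without. The nuclei were cut with CviKI-1, which cuts between G and C where a purine precedes and a pyrimidine follows, before sonication. Such sites numbered 3.08 to 33.8 per kb in the 17 peaks, against a median of 21.2 in the whole list, and the part of cutting in the peaks was not tested.

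**Figure D3:**
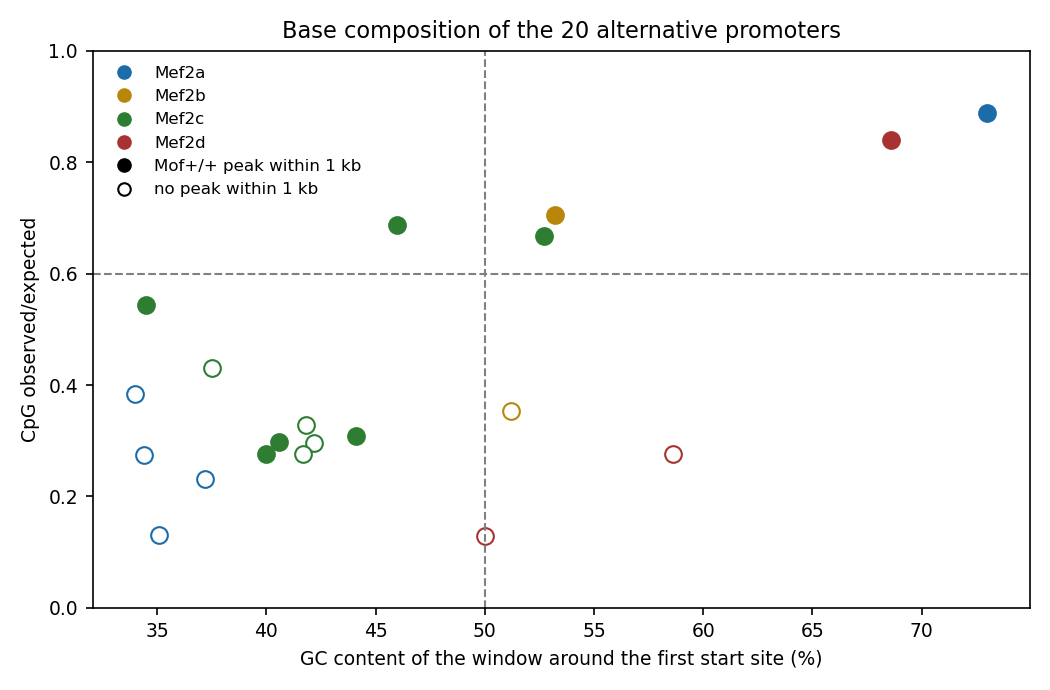
CpG observed/expected ratio (vertical axis) against GC content in percent (horizontal axis) of the 1001 bp around the first start site of each of the 20 alternative Mef2 promoters. Points are filled where a Mof+/+ peak lay within 1 kb, and dashed lines mark the limits of 0.6 and 50%; all 4 promoters past both limits are filled, and the 5 other filled points belong to Mef2c.

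The absence of the family from the Mof+/- list has to be read with the depth of that list. Its lowest background was 2.26 fragments, against 3.52 in the Mof+/+ list, a ratio of 1.56. Its weakest entry had a −log10 p-value of 4.72, against 3.25. At the lowest background the Mof+/- list began at a fold enrichment of 3.68 and the Mof+/+ list at 2.65, with 11 fragments in each. Each Mof+/+ peak was therefore reset to the Mof+/- background with its fold enrichment kept, the expected fragments were rounded to the nearest whole number, and the resulting Poisson p-value was set against the weakest one of the Mof+/- list. This takes the expected number of fragments and leaves out its spread.

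With enrichment kept up to this rounding, 8 of the 17 peaks passed the Mof+/- cutoff, against 51.6% of all Mof+/+ peaks. Of these, 6 also passed with the fragments rounded down, against 44.1% of all Mof+/+ peaks, and they were the peak of Mef2a, peaks 1 and 4 of Mef2c and peaks 1, 2 and 7 of Mef2d. The other 2, peak 2 of Mef2b and peak 3 of Mef2d, had 10.5 expected fragments and a fold enrichment of 3.54, under the 3.68 at which the Mof+/- list began, and passed only when this was rounded to 11. For these 2 and for the 9 peaks that did not pass, among them the Mef2c peaks at promoters 4 to 7 and the peak shared by Mef2b, Rfxank and Borcs8, a loss of binding and an unchanged enrichment cannot be told apart in the Mof+/- list. Of the 6, peak 1 of Mef2d alone had a 95% interval wholly above 3.68, with a lower bound of 4.7. The lower bounds of the others were 2.58 to 2.75. Counting error alone could thus keep them off the Mof+/- list, and the same limit holds for them. With the excess over background halved, 1 peak still passed, the broad peak of Mef2d. Among all Mof+/+ peaks on the assembled chromosomes, 2.44% overlapped a Mof+/- peak, so that none among 17 is what most peaks showed. The list holds only regions past its threshold, and no upper limit on binding can be taken from it.

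The peaks nearest to the rule's limits were as follows. Just inside were Mef2c peak 3, 1747 bp from a start site, and Mef2d peak 2, 2682 bp from one, both also inside the gene body. Just outside were a peak of fold enrichment 2.47 from 67229828 to 67230202, 961 bp past the end of Mef2a, and one of 2.88 from 88173444 to 88173754, 1358 bp past the end of Mef2d.

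MEF2 factors are known to act on Mef2c itself, and the peaks were searched on both strands for the 10-letter MEF2 consensus, a palindrome, so that each site is counted once. It was found in 5 of the 17 peaks, which differ in width, against 7.89% of all Mof+/+ peaks. In the 1001 bp around the first start site it was found in 6 of the 20 Mef2 promoters, against 11.8% of all alternative promoters. The peaks held 7 matches, and 4 are printed in capitals with their flanks because they lie at the start of Mef2a, in the strongest Mef2d peak and in intronic peaks of Mef2d and Mef2c. Each runs 5′ to 3′ on the strand of its gene.
Mef2a peak 1, chr7:67372841-67372870, reverse strand: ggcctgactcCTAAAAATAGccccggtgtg
Mef2d peak 1, chr3:88140783-88140812, forward strand: tggggaagcaCTAAAAATAGaggccacaag
Mef2d peak 5, chr3:88150212-88150241, forward strand: actgcccaggCTAAAAATAGcccctgccca
Mef2c peak 4, chr13:83565985-83566014, forward strand: agggctccaaCTATTTATAGaactgagtaa
The Mef2a, Mef2d peak 1 and Mef2d peak 5 elements have the same 10 letters, and the Mef2a copy spans the first start site of the gene. The other 3 matches lie in Mef2c peak 6 and, once more, in Mef2d peak 5. A match of letters is not evidence of MEF2 binding.

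The partners and regulators of MEF2 were followed in 5 lists of genes, scored by a peak within 1 kb of a start site, against 41% of all protein-coding genes. In all, 35 of 55 genes (63.6%) had a Mof+/+ peak, and the median of their strongest fold enrichments was 4.77, against 3.98 over all genes with such a peak. Of the 6 corepressors, 5 had one, led by Hdac4 at a fold enrichment of 5.51 and Hdac7 at 5.31, which encode class IIa deacetylases, and by Cabin1 at 5.09, which encodes a calcineurin-binding repressor. Hdac9 had none. Of the 6 coactivators, 5 had one, led by the acetyltransferase gene Ep300 at 7.08, the arginine methyltransferase gene Carm1 at 5.31 and Ncoa2, a nuclear receptor coactivator gene, at 4.6. Ppargc1a had none within this window.

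Among 13 kinases and phosphatase subunits, 10 had a peak. The strongest were at Ppp3ca, a calcineurin catalytic subunit gene, at 5.62, at Camk2d, a calcium/calmodulin kinase gene, at 5.49, and at Map2k5, which encodes the kinase upstream of ERK5, at 5.27. Camk1, Camk4 and Prkd1 had none. Of the 14 DNA-binding partners, 7 had one, with Nfatc3 and Nfatc1, genes of calcineurin-regulated factors, both at 6.19 and Smad3, a TGF-beta effector gene, at 5.5. Of the 16 target genes, 8 had one, with the Kruppel-like factor genes Klf2 at 10.6 and Klf6 at 5.75 and the AP-1 gene Jun at 5.53. No gene of the 5 lists had a Mof+/- peak within 1 kb, against 1.32% of protein-coding genes. Under the rule with gene bodies 1 did, Gata4, with 3 Mof+/- peaks, singled out after its values were seen.

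The genes that the study set beside Mef2c had 1 Mof+/+ peak each, and differences between these values were not tested. The peak of Slc2a4 ran from 69948312 to 69949223 on chromosome 11, 124 bp from a start, enriched 3.32-fold from 14 fragments. Ppargc1a, a coactivator gene, had 3.29 from 16 fragments, 1014 bp from a start, and Pparg, the gene of the main adipocyte regulator, had 2.65 from 11 fragments, 2223 bp from a start. None of the 3 had a Mof+/- peak. The ChIP-qPCR of the study found no enrichment at the Slc2a4 promoter and MOF at that of Pparg. The difference between that measure and these peak calls was not tested.

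**Figure D4:**
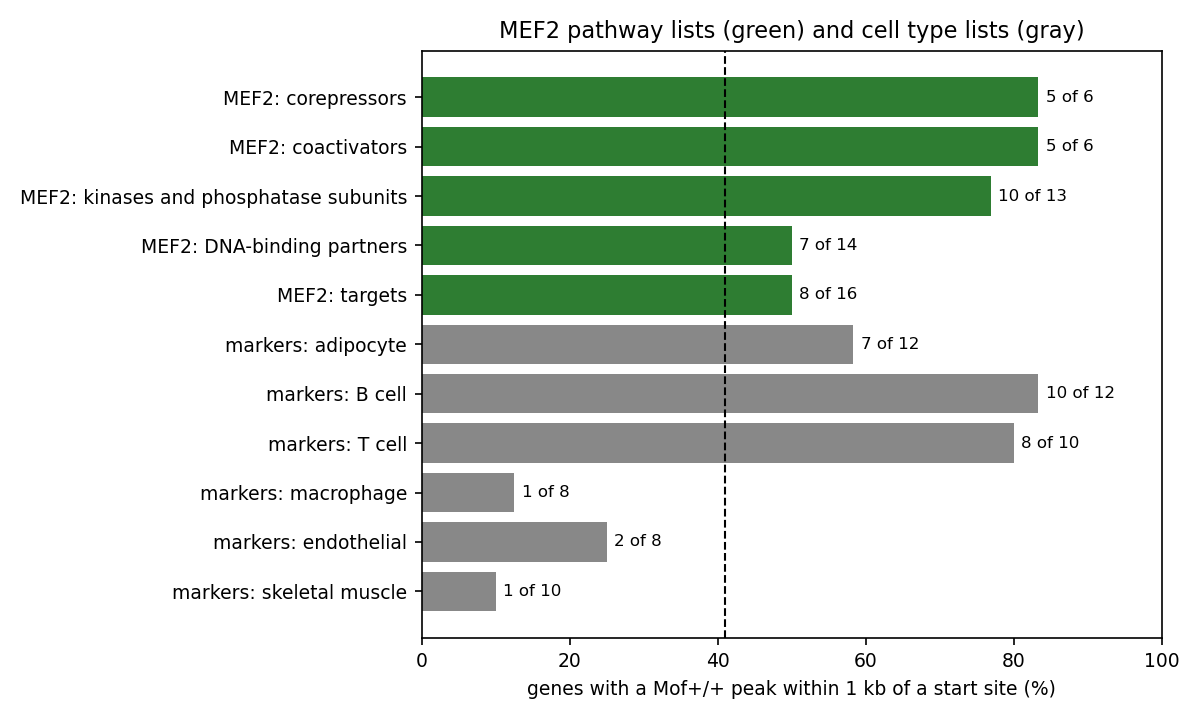
Share of genes in percent with a Mof+/+ peak within 1 kb of a start site (horizontal axis), for the 5 MEF2 pathway lists (green) and 6 cell type marker lists (gray), with the number of genes beside each bar. The dashed line is the 41% of all protein-coding genes; corepressors and coactivators stand at 83.3%, DNA-binding partners and targets at 50%.

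The label of the tissue was set against marker genes of cell types, though a peak list is no measure of expression. A Mof+/+ peak within 1 kb was found at 7 of 12 adipocyte markers, 10 of 12 B cell markers and 8 of 10 T cell markers, and at 1 of 8 macrophage, 2 of 8 endothelial and 1 of 10 skeletal muscle markers. The adipocyte markers Cidec, Fabp4, Lep, Pparg and Retn had none. Mef2b and Mef2c are also lymphocyte genes, and the part of lymphocytes in their peaks was not tested.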

How the data were processed

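MOF ChIP-seq libraries and their inputs were described for visceral white adipose tissue of both genotypes. Per the labels and the study's methods, the authors mapped reads to GRCm38/mm10 and called narrow peaks with MACS2 2.1.1.20160309.3 against input at a q-value of 0.1; whether the 2 libraries of a genotype were pooled before calling is not given in the sources used here. The methods also describe merging peaks within 1000 bp, but the deposited Mof+/+ and Mof+/- lists hold 3796 and 148 peaks that such merging would join to a neighbour, so it was not applied to them. The genotype of each list was read from its name, the one naming no genotype being taken as Mof+/+. The design text and the labels differ in the number of Mof+/- animals, and the labels give 2 libraries per group.

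The deposited columns used were start, end, the fold enrichment at the summit, the −log10 p-value, the −log10 q-value (recorded as a score) and the summit offset in bases. The deposited display score of column 5 was not used. Each list counts as 1 sample per genotype, with no test possible between them. The histone H3 libraries and signal tracks of single libraries were not used here. Library totals were not used; the depth behind a peak is its fragment count. Whole fragments n and the background were recovered from the fold enrichment, (n + 1)/(background + 1), and the Poisson p-value, within 0.001 in −log10 p, for 100% of Mof+/+ and 99.5% of Mof+/- peaks, and exact Poisson 95% intervals were taken on n.

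The 4 genes and all gene lists were chosen with earlier results of these data known. Named were the 4 members with every peak, genes sharing a member's peak, the 3 strongest genes of each pathway list, genes with a Mof+/- peak, genes without a Mof+/+ peak where 5 or fewer, and Slc2a4, Ppargc1a and Pparg. Overlap meant at least 1 bp. Sequences and base composition came from GRCm38.p6, where lower case marks repeats. Alternatives were other q-value and p-value limits, windows, merging of peaks within 1000 bp, and other ways of joining start sites. Python 3.11.15, pandas 2.3.3, numpy 2.4.6, scipy 1.17.1 and matplotlib 3.10.9 were used.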

Additional observations from a re-analysis of the deposited data

Results flagged for a closer look

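Outside the genes and their start windows, 2 entries of the Mof+/- list lay within 100 kb of a Mef2 gene and are given as values only. The first, from 83726670 to 83727052 on chromosome 13, lay 59.6 kb past the end of Mef2c, with a fold enrichment of 4.6 from 14 fragments. Its summit was in an intron of C130071C03Rik and Gm26803, both noncoding RNA genes, and it overlapped no Mof+/+ peak, but a Mof+/+ peak of fold enrichment 3.32 from 14 fragments began 294 bp past its end. The second, from 88201092 to 88201357 on chromosome 3, lay 29 kb past the end of Mef2d, with a fold enrichment of 3.49 from 11 fragments. It lay in an exon of the noncoding genes AI849053 and AW047730, inside a Mof+/+ peak of fold enrichment 4.48. The nearest Mof+/- peaks to Mef2a and Mef2b were 555 kb and 14811 kb away.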

How the results depend on the processing

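Of 44 alternative settings of the values that answer a comparison, 36 kept the value within the limits set and 8 moved it. The 17 Mof+/+ peaks became 9 under a q-value limit of 0.001, 11 with the weakest Mof+/- p-value applied to both lists, 9 within 3 kb of a start site and 7 within 1 kb. The 9 promoters with a peak became 4 at q-values of at most 0.01 and 0.001 and with the weakest Mof+/- p-value, or 20% against 20.6%, 17.1% and 19.6% of all promoters, so that the share turned from above to just under the background at 0.01. The 8 peaks past the Mof+/- cutoff became 1 with the excess halved, 5.88% against 3.19% of all peaks, where the main share was under that of all peaks; alternatives chosen after seeing the data, fragments scaled with the background and expected fragments rounded down, gave 6 each. All 4 genes kept a peak, and 0 Mof+/- peaks, under every setting run. Of 28 settings of single-gene counts 8 moved, and the order of the genes by count changed with the window and with merging, which left Mef2d 5 peaks and Mef2c 6. Mef2d went from 7 to 2 peaks within 3 kb of a start site and 1 within 1 kb, where Mef2c had 5 and 4, and Mef2b from 3 to 1 in both. By strength, Mef2c went from 6 to 3 peaks under a q-value limit of 0.01, and to 2 under 0.001 and with the weakest Mof+/- p-value, and Mef2b to 1 at 0.001. No paired analysis was possible because the lists used hold 1 entry set per genotype and no column for each of the 2 libraries, and no replicate could be left out for the same reason. Peaks of 12 to 30 fragments limit the precision of every fold enrichment.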
